A study of Homo sapiens with 4 samples.

Results

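Doxorubicin and vehicle were compared here by their maps of γH2AX, the histone variant H2A.X phosphorylated at serine 139, in SK-UT1 cells, a line from a leiomyosarcoma of the uterus, that is, a cancer of smooth muscle. 1 library came from cells given 0.5 µM doxorubicin and 1 library from cells given 0.1% DMSO, the vehicle. These were 2 of the 4 chromatin immunoprecipitation and sequencing (ChIP-seq) libraries of the study; the others had 1 µM OTS186935, an inhibitor of the histone methyltransferase SUV39H2, alone or together with 0.5 µM doxorubicin. All used the same cell line, and the length of exposure is not given in the sources used here. Members were chosen by treatment label: every listed peak of both libraries on chromosomes 1 to 22 and X, once overlapping and touching rows of a list had been joined. That left 47495 doxorubicin peaks and 72858 DMSO peaks, which joined into 94587 separate regions, of 123975 in all 4 libraries. With 1 library a side there is no replicate error, so no difference between the conditions was tested. Brackets give 95% intervals, exact binomial ones for single ratios and percents, which cover counting error only and treat peaks as independent. The identity of the cells was not checked, since a peak list holds no expression values.

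Kinases of the DNA damage response phosphorylate H2A.X around double-strand breaks, and the mark can spread over long stretches of chromatin beside a break. Doxorubicin is an anthracycline that intercalates into DNA and traps topoisomerase II on cut DNA, which leaves breaks; anthracyclines are also known to evict histones from open chromatin. A peak here is a local excess of fragments over the surrounding sequence, so a mark laid evenly over a broad domain is not listed as one.

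Promoter sequences show what kind of DNA lay under shared and one-sided peaks. Each is the stretch from 250 bases before to 50 bases after an annotated start, taken 5′ to 3′ on the gene's strand from RefSeq, build GRCh38.p14, and each lay wholly inside its peak. Capitals mark GGGCGG (the GC box), TATAAA (the TATA box) and TGACG (the core of the cAMP response element) on either strand. The ends of these motifs can overlap, and a match is only a match of letters. SYCE1, a synaptonemal complex gene, at chr10:133565534-133565833 (minus strand) and CETN1, a centrin gene, at chr18:580130-580429 (plus strand) lay under peaks of both libraries. FAM13C at chr10:59362500-59362799 (minus strand) and NGEF, a guanine nucleotide exchange factor gene, at chr2:233013207-233013506 (minus strand) lay under a doxorubicin peak alone. STK31, a kinase gene, at chr7:23709969-23710268 (plus strand) and ACER1, an alkaline ceramidase gene, at chr19:6333563-6333862 (minus strand) lay under a DMSO peak alone. They were the strongest such promoters by −log10 q.
SYCE1: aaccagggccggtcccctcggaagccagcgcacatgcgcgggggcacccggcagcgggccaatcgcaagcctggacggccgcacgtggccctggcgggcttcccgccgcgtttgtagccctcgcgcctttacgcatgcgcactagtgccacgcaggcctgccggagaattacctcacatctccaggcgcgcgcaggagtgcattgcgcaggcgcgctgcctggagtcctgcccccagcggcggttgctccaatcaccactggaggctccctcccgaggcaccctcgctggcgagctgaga
CETN1: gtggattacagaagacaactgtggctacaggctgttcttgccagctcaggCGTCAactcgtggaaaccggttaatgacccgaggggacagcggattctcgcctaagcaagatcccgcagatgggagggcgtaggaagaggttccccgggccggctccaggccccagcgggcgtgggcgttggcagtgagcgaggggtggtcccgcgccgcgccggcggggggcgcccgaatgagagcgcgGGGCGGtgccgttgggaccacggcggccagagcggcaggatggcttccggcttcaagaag
FAM13C: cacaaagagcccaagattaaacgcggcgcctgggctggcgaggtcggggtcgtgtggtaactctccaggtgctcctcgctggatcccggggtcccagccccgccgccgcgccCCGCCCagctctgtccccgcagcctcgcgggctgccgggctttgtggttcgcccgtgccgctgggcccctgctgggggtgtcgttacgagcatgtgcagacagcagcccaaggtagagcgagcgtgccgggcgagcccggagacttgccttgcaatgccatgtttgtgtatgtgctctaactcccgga
NGEF: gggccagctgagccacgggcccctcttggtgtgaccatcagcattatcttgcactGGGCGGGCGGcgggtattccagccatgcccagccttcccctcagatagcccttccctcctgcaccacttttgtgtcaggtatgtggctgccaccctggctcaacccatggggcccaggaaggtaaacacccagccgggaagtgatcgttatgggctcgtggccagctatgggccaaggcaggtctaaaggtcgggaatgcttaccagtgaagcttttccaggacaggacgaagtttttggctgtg
STK31: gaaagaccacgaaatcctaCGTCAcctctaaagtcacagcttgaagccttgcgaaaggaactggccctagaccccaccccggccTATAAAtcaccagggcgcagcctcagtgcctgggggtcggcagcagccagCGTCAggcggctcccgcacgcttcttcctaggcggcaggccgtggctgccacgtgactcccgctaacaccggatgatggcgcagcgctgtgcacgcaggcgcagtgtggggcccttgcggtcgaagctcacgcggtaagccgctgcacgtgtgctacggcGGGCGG
ACER1: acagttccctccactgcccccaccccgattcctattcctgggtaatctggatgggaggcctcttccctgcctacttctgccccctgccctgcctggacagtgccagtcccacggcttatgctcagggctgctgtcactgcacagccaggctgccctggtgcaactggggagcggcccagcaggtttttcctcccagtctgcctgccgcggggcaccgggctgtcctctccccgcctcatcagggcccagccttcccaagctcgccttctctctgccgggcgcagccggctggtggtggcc
SYCE1 has 70.3% GC and 32 CpG, and its peak had a fold of 5.82 over background with doxorubicin and 6.34 with DMSO. CETN1 has 67.3% GC and 30 CpG, and its peak had a fold of 8.32 with doxorubicin and 9.75 with DMSO. The folds of both shared promoters were thus alike in the 2 libraries, while their summit heights differed more at SYCE1. SYCE1 had 42 fragments at its summit with doxorubicin and 73 with DMSO, and CETN1 had 19 with doxorubicin and 22 with DMSO. The FAM13C peak had a fold of 7.92 and the NGEF peak a fold of 5.73 in the doxorubicin library. In the DMSO library the STK31 peak had a fold of 10.6 and the ACER1 peak a fold of 8.29. NGEF, with 9 CpG, and ACER1, with 11, were poorer in CpG than the other printed promoters, which held 28 to 32. Folds are the authors' values for each peak.

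Of the doxorubicin peaks, 45.9% had no overlapping DMSO peak (21809 peaks), and of the DMSO peaks 64.9% had no overlapping doxorubicin peak (47297 peaks); an overlap of 1 bp sufficed. The doxorubicin list held 0.652 peaks per DMSO peak and covered 22.2 Mb, against 39.5 Mb with DMSO. Shared and one-sided peaks thus both made up large parts of each list. How many fragments were stacked at each summit was worked out from the fold and the −log10 p that the authors deposited. The most frequent local background, taken as the floor, was 0.389 fragments with doxorubicin and 0.454 with DMSO, a ratio of 0.857. This ratio is a rough stand-in for relative depth, because the files give none, and need not equal the ratio of read counts. Scaling the DMSO summits and backgrounds to the doxorubicin floor and holding both lists to the stricter p limit left 0.702 doxorubicin peaks per DMSO peak. When both lists were held to a −log10 q of at least 5, the doxorubicin count was 25.5% of the DMSO count, and 55.2% of doxorubicin and 14.1% of DMSO peaks were shared.

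One-sided peaks were lower and narrower than shared ones in both libraries. The doxorubicin-only peaks had a median of 5 fragments at the summit and a median width of 367 bp (quartiles 325 and 442), against 8 fragments and 458 bp (364 and 614) in shared doxorubicin peaks. The DMSO-only peaks had a median of 7 fragments and 433 bp (373 and 542), against 10 fragments and 561 bp (433 and 752) in shared DMSO peaks. Widths of 1 kb or more occurred in 63 doxorubicin-only peaks (0.289%) and in 961 shared doxorubicin peaks (3.74%). In the DMSO library they occurred in 1059 DMSO-only peaks (2.24%) and 2647 shared peaks (10.4%). Peaks with more than 1 summit row, 924 with doxorubicin and 3509 with DMSO, were shared in 94.4% of cases with doxorubicin and 74.6% with DMSO. Many peaks rested on few fragments: 59.3% of doxorubicin peaks and 46.4% of DMSO peaks had 7 or fewer at the summit.

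The share of peaks met by a peak of the other list was larger for higher summits. It also depends on the length of the other list. Among doxorubicin peaks of 3 to 4 fragments, 28.5% overlapped a DMSO peak, and among DMSO peaks of 3 to 4 fragments 15.2% overlapped a doxorubicin peak. At 9 to 10 fragments the shares were 71.5% of doxorubicin peaks and 42.2% of DMSO peaks, and at 21 or more they were 89.2% of doxorubicin peaks and 58.1% of DMSO peaks. The doxorubicin share hardly moved between 9 and 20 fragments, and at every height it lay above the DMSO share. Width showed a like course: 37.0% of doxorubicin peaks under 350 bp were shared and 18.1% of such DMSO peaks, while 98.8% of doxorubicin peaks of 1500 bp or more (79 of 80) and 88.5% of such DMSO peaks (417 of 471) were shared.

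**Figure D1:**
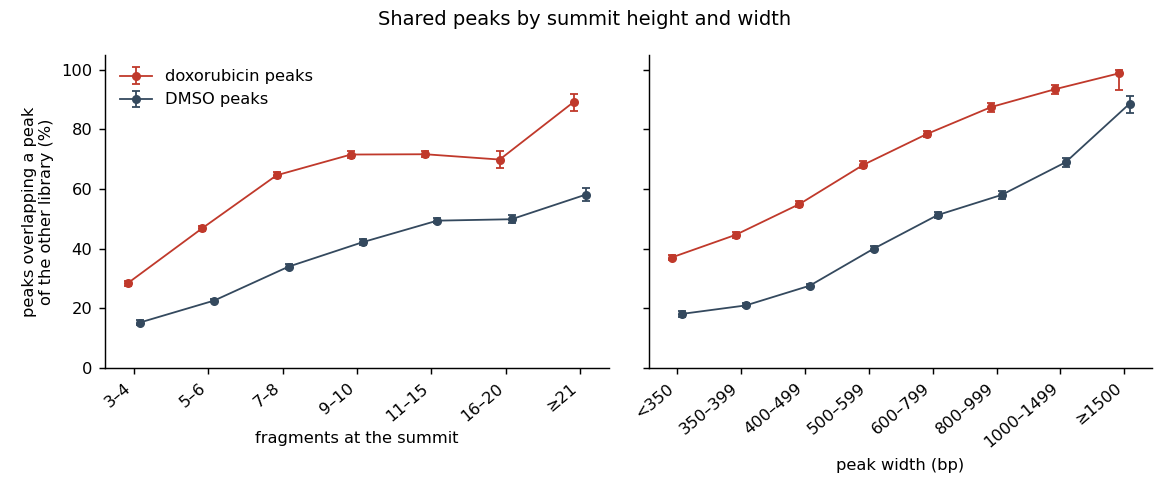
Percent of peaks that overlap a peak of the other library (y axes) by fragments at the summit (left) and by width in bp (right), doxorubicin in red and DMSO in dark blue, with exact 95% binomial intervals. The doxorubicin share lies above the DMSO share in every class and reaches 98.8% against 88.5% in the widest peaks.

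Among 25209 pairs in which 1 doxorubicin peak met 1 DMSO peak, the summits lay a median of 87 bp apart (quartiles 36 and 206), and 54.8% lay within 100 bp. The median summit held 8 fragments with doxorubicin and 10 with DMSO, and the median ratio within pairs was 0.786 (quartiles 0.615 and 1). The doxorubicin summit was higher in 20.2% of pairs, equal in 10.7% and lower in 69.2%. In 59.4% of pairs the ratio lay below the ratio of floors, 0.857, so most shared sites were lower with doxorubicin by more than that measure of depth. The doxorubicin peak was the narrower in 70.6% of pairs, with a median width of 458 bp against 559 bp for its DMSO partner. Listed widths start at 295 bp with doxorubicin and 331 bp with DMSO, and the part of these limits in the difference was not tested. Pairs exist only where both libraries passed a peak caller's limit, so sites missing from either list are not in these values.

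Doxorubicin-only peaks lay a median of 8.99 kb from the nearest DMSO peak, and DMSO-only peaks a median of 12.8 kb from the nearest doxorubicin peak. Within 1 kb of a peak of the other list were 9.56% of doxorubicin-only and 5.81% of DMSO-only peaks, while 3.30% of doxorubicin-only and 5.32% of DMSO-only peaks lay more than 100 kb away. Most one-sided peaks thus had no near neighbour in the other list, and the shorter distance from doxorubicin-only peaks was measured to the longer list.

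The strongest one-sided peaks inside gene bodies stood at single sites. With doxorubicin alone, an intragenic peak of FARS2, which encodes the mitochondrial phenylalanyl-tRNA synthetase, at chr6:5510343-5511009 had a fold of 9.98, a −log10 q of 11.7 and 14 fragments at its summit. TIAM1, a Rac exchange factor, carried one at chr21:31387534-31387980 with a fold of 8.78, and MSH3, a mismatch repair gene, one at chr5:80667456-80667975 with a fold of 8.59. APOL4, of the apolipoprotein L cluster, carried one at chr22:36198957-36199389 with a fold of 9.08. With DMSO alone, FOXP4, a forkhead transcription factor, had one at chr6:41569314-41569894 with a fold of 11.3, a −log10 q of 17.5 and 22 fragments. MYT1, a zinc finger factor of neural cells, held a one-sided peak of each library at different sites near the end of chromosome 20: chr20:64216864-64217221 with doxorubicin, where 52 fragments stood on a background of 11.3, and chr20:64237296-64237684 with DMSO, where 73 stood on 16.7. Exons and introns were not told apart.

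Away from every gene, the highest doxorubicin-only peaks by −log10 q were at chr5:63008137-63008607, 380 kb from IPO11, with a fold of 8.96, and at chr11:4568998-4569501, 12.2 kb from OR52I2, with a fold of 9.0. The highest DMSO-only intergenic peaks were at chr10:133618246-133618805, 5.09 kb from FRG2B, with a fold of 8.04, and at chr11:134880754-134881193, 469 kb from B3GAT1, with a fold of 9.23. FRG2B belongs to a family of near-identical copies, so the placement of its reads is uncertain. The doxorubicin pair had 13 and 12 fragments at the summit, against 47 and 35 in the DMSO pair.

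The widest peaks were mostly shared. PARD6G, a cell polarity gene near the end of chromosome 18, carried a peak of 2855 bp with doxorubicin and 2787 bp with DMSO. AHRR, the repressor of the aryl hydrocarbon receptor, carried one of 2479 bp with doxorubicin and 2730 bp with DMSO. The widest one-sided peaks were those of OSR2 with doxorubicin (1621 bp) and of SMIM32 with DMSO (2361 bp). HOXD3, a homeobox gene, had a doxorubicin-only peak of 1250 bp, and HPS6, a gene of lysosome-related organelle assembly, a DMSO-only peak of 2063 bp.

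Strong gene-end peaks in both libraries differed in how far the folds matched. A gene end here is 1 kb either side of the start or end of a protein-coding gene. GIMAP7, a GTPase gene of the immune system, had a fold of 10.6 with doxorubicin and 6.19 with DMSO at its 5′ end, from 15 fragments with doxorubicin and 8 with DMSO. ASCL4, a basic helix-loop-helix factor, had 8.75 with doxorubicin and 6.56 with DMSO. DNAH8, an axonemal dynein gene, had 8.65 with doxorubicin and 7.08 with DMSO, and NUPR2 had 8.59 with doxorubicin and 7.24 with DMSO. PLAAT5, a phospholipid-modifying enzyme gene, stood the other way, with 8.61 in the doxorubicin library and 11.9 in the DMSO library, as did ZNF180, a zinc finger gene, with 8.64 with doxorubicin and 9.63 with DMSO. These genes were taken for a high doxorubicin fold, so the direction is not a finding.

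Every chromosome held fewer doxorubicin than DMSO peaks, but in different proportion. Chromosome 22 had the lowest ratio, 0.567 doxorubicin peaks per DMSO peak (0.527 to 0.610; 1142 doxorubicin and 2015 DMSO peaks), followed by chromosome 17 with 0.576 (2106 doxorubicin and 3656 DMSO) and chromosome 19 with 0.578 (2039 doxorubicin and 3527 DMSO). Chromosome 4 had the highest, 0.722 (0.683 to 0.763; 2171 doxorubicin and 3008 DMSO peaks), followed by chromosome 8 with 0.710 and chromosome X with 0.698. The intervals of chromosomes 22, 17 and 19 lay wholly below those of chromosomes 4 and 8. Relative to the whole genome these 5 and chromosome X stayed on their side with equal list lengths and with a −log10 q limit of 5, while 11 of the other chromosomes changed sides in one or both. Over the 23 chromosomes the ratio had a Spearman correlation of -0.66 with protein-coding genes per Mb. Peaks per Mb had a Spearman correlation with genes per Mb of 0.80 with doxorubicin and 0.83 with DMSO, so gene-dense chromosomes had more peaks in both. These are descriptions over chromosomes that share 2 libraries.

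Sharing followed another order. Of doxorubicin peaks 45.0% were shared on chromosome 13 and 63.6% on chromosome 19, and of DMSO peaks 28.5% were shared on chromosome 13 and 39.1% on chromosome X. With gene density the correlation was 0.47 for the shared percent of doxorubicin peaks and -0.22 for that of DMSO peaks.

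**Figure D2:**
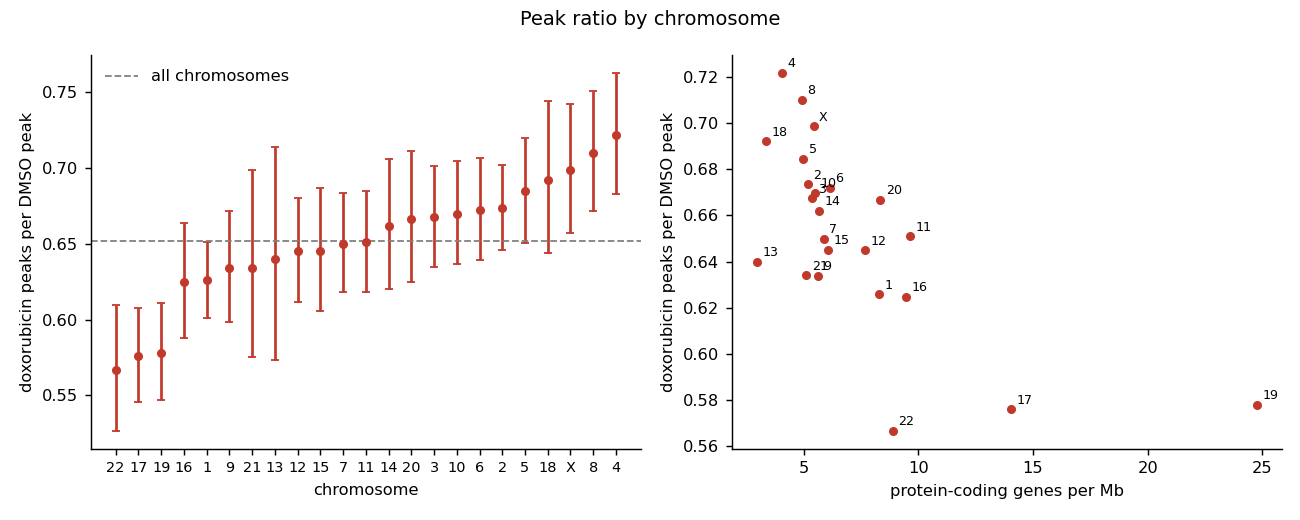
Doxorubicin peaks per DMSO peak on each chromosome, sorted and with exact 95% binomial intervals (left, dashed line at the value over all chromosomes), and plotted by chromosome against protein-coding genes per Mb (right). Chromosomes 22, 17 and 19 lie lowest, from 0.567 to 0.578, and chromosome 4 highest at 0.722.

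Counts in 1 Mb bins were correlated between the libraries. Over 2868 bins with a peak the counts had a Pearson correlation of 0.95 and a Spearman correlation of 0.935, with a median of 12 doxorubicin peaks and 17 DMSO peaks a bin. With a −log10 q of 5 or more in both lists the Spearman correlation was 0.572. That limit left 4762 doxorubicin and 18655 DMSO peaks. Low counts a bin can by themselves lower a correlation, so this value cannot tell whether strong peaks were less alike. Doxorubicin peaks were more numerous in 238 bins, equal in 165 and fewer in 2465. In the 643 bins with 40 or more DMSO peaks the ratio ran from 0.333 to 0.975 with a median of 0.604 (quartiles 0.534 and 0.667). These bins were chosen by their DMSO count, which by itself favours low ratios. Of them, 0% had a ratio at least 1.5 times the genome-wide one (0 bins), and 2.8% had a ratio lower by 1.5 times or more (18 bins). Neighbouring bins were nearly unrelated in ratio, with a Spearman correlation of 0.02 over 421 adjacent pairs. Counting error in single bins can hide a likeness between neighbours, so this value cannot tell whether bins of like ratio run together. When bins were chosen by 60 or more peaks of both lists together, 733 bins had a median ratio of 0.621, 3 held more doxorubicin peaks, 4 had a ratio at least 1.5 times the genome-wide one and 17 a ratio lower by as much.

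The highest ratios were in the bin from 151 Mb of chromosome 5, that of SPARC and GPX3, with 39 doxorubicin and 40 DMSO peaks, and in the bin from 64 Mb of chromosome 15, that of PIF1 and ZNF609, also with 39 doxorubicin and 40 DMSO peaks. Both had a ratio of 0.975 (0.611 to 1.55), an interval that includes the genome-wide ratio of 0.652. Peaks of the 2 libraries in these bins overlapped only in part, since 19 of the 40 DMSO peaks of the first and 18 of the second were shared. The last bin of chromosome 7, which holds VIPR2, a receptor gene for vasoactive intestinal peptide, had 47 doxorubicin and 49 DMSO peaks and shared 79.6% of the DMSO peaks. Its ratio of 0.959 had an interval of 0.629 to 1.46, which also includes the genome-wide ratio. The lowest ratios included several bins of chromosome 22. Of these the bin from 21 Mb was lowest of all, at 0.333 (0.180 to 0.587), with 17 doxorubicin and 51 DMSO peaks. The bin from 31 Mb of chromosome 22, that of LIMK2 and the smooth muscle gene SMTN, had 17 doxorubicin and 47 DMSO peaks. The bin from 40 Mb of the same chromosome had 17 doxorubicin and 45 DMSO peaks. The bin of TPM1, which encodes a tropomyosin, and CA12 from 63 Mb of chromosome 15 had 16 doxorubicin and 44 DMSO peaks. It directly precedes the bin of PIF1, which was among the highest. The bin of NR5A1 and LHX2 from 124 Mb of chromosome 9 had 23 doxorubicin and 62 DMSO peaks. All bins named here are extremes of 643, a choice that the intervals do not allow for.

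Doxorubicin peaks were fewest, relative to DMSO peaks, where genes were densest. When the bins were cut into quintiles by protein-coding genes, the poorest quintile (0 to 1 gene) held 3775 doxorubicin and 5409 DMSO peaks, a ratio of 0.698 (0.669 to 0.728). The densest quintile (11 to 74 genes) held 17142 doxorubicin and 28313 DMSO peaks, a ratio of 0.605 (0.594 to 0.617). The quintiles between had 0.705, 0.691 and 0.659 from poorer to denser, so the ratio was about level over the 3 poorer quintiles and lowest in the densest. DMSO peaks were shared about alike throughout, 35.6% in the poorest quintile and 34.4% in the densest, while doxorubicin peaks were shared in 51.3% of cases in the poorest and 57.1% in the densest. This difference of 5.76 points turned to -0.22 with a −log10 q of 5 or more in both lists and to -0.41 with a reciprocal overlap of 50%. Summits were higher and the local background thicker in the densest quintile: the median doxorubicin peak had 8 fragments over a background of 1.06 there and 5 over 0.389 in the poorest, and the median DMSO peak 10 over 1.19 there and 6 over 0.454 in the poorest. Compared within classes of equal summit fragments, the shared percent of DMSO peaks was 13.1 points lower in the densest than in the poorest quintile. The part of the background in these differences was not tested.

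**Figure D3:**
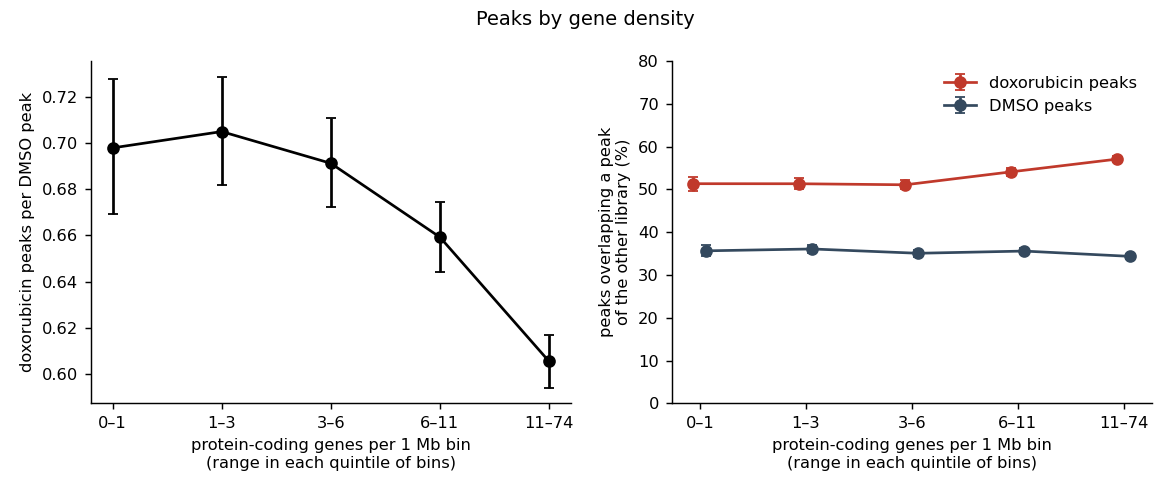
Doxorubicin peaks per DMSO peak (left) and percent of peaks that overlap a peak of the other library (right; doxorubicin in red, DMSO in dark blue) in quintiles of 1 Mb bins ordered by protein-coding genes, with 95% intervals from counts. The ratio lies at 0.698 in the poorest and 0.605 in the densest quintile, where 57.1% of doxorubicin peaks and 34.4% of DMSO peaks were shared.

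In the full lists, chromosome ends had more of their peaks in common than the rest. In the outermost 1 Mb, 73.6% of doxorubicin peaks and 50.05% of DMSO peaks were shared, against 52.0% of doxorubicin peaks and 34.5% of DMSO peaks more than 20 Mb from an end. The ratio was 0.693 in the outermost 1 Mb (0.657 to 0.731), 0.624 between 1 and 5 Mb and 0.665 beyond 20 Mb. These values were not compared at equal summit fragments or repeated with the −log10 q limit, so the part of summit height was not tested. A chromosome was taken to end at the last annotated gene or listed peak, and assembly gaps were not left out.

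In the full lists, gene ends had the lowest ratio of doxorubicin to DMSO peaks by position. They held 4333 doxorubicin and 7907 DMSO peaks, a ratio of 0.548 (0.528 to 0.569), in 2.39% of the bases. The inner parts of protein-coding genes held 23146 doxorubicin and 35513 DMSO peaks, a ratio of 0.652 (0.641 to 0.663), and 48.7% of the peaks of either library. Annotated genes that are not protein-coding held 5822 doxorubicin and 8241 DMSO peaks (0.706), and intergenic sequence 14194 doxorubicin and 21197 DMSO peaks (0.670). The gene end ratio over the intergenic ratio was 0.818 (0.784 to 0.854). With a −log10 q of 5 or more in both lists it was 0.930 (0.829 to 1.04), an interval that includes equal ratios. Of peaks at gene ends, 71.2% with doxorubicin and 40.4% with DMSO were nevertheless shared, against 51.7% of doxorubicin and 34.3% of DMSO intergenic peaks. Inside protein-coding genes 51.9% of doxorubicin and 33.4% of DMSO peaks were shared, and in the other genes 55.7% of doxorubicin and 39.4% of DMSO peaks. At equal summit fragments the excess for DMSO peaks at gene ends over intergenic ones was gone, at -0.12 points against 6.05 points before, and a −log10 q limit of 5 in both lists gave -0.12 as well. For doxorubicin peaks the excess depended on height: of those with 3 to 5 fragments 53.6% were shared at gene ends and 32.6% in intergenic sequence, at 11 to 15 fragments 78.5% and 75.1%, and at 16 or more 77.9% at gene ends and 83.0% in intergenic sequence, with overlapping intervals in both of the higher classes. With the −log10 q limit the difference for doxorubicin peaks was 1.77 points (-3.46 to 6.91).

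The ratio was lowest at 5′ ends. Peaks at 5′ ends alone had a ratio of 0.508 (0.482 to 0.535; 2153 doxorubicin and 4236 DMSO peaks), and peaks at 3′ ends alone 0.623 (0.577 to 0.673; 1064 doxorubicin and 1708 DMSO peaks), so the intervals did not meet. The 5′ and 3′ values were not repeated with the −log10 q limit. Direction was known for 15813 of 19974 protein-coding genes (79.2%), none of them on chromosome 8. In the first 500 bp after the 5′ end, 59.4 doxorubicin and 123 DMSO summits lay per 1000 genes, a ratio of 0.482. That ratio had an interval of 0.445 to 0.521, and from 2 to 10 kb inside the ratio was 0.617 (0.591 to 0.644; single steps 0.533 to 0.727). Both libraries thus had a sharp crest just inside the start, where the ratio was lower than further in. Before the 3′ end, 25.9 doxorubicin and 37.4 DMSO summits per 1000 genes lay 500 to 1000 bp upstream, and just after it, within 500 bp, 9.55 with doxorubicin and 16.6 with DMSO. All chromosomes and gene lengths are pooled in these counts, and neighbouring genes can count the same summit.

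**Figure D4:**
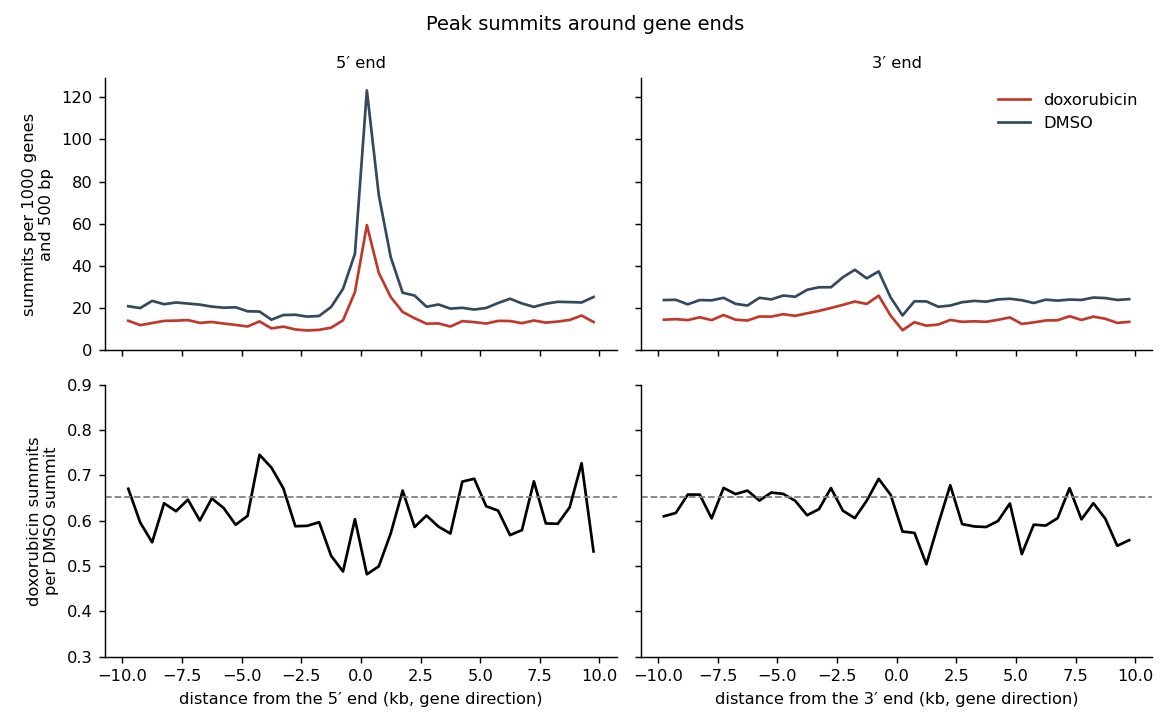
Summits per 1000 genes in steps of 500 bp (top; doxorubicin in red, DMSO in dark blue) and doxorubicin summits per DMSO summit (bottom, dashed line at the value over all peaks) around the 5′ (left) and 3′ (right) ends of 15813 protein-coding genes, against the distance in kb in the direction of the gene. Both libraries crest in the first 500 bp after the 5′ end, at 59.4 with doxorubicin and 123 with DMSO, where the ratio is 0.482.

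Along gene bodies the ratio ran from 0.613 to 0.682 over deciles, with overlapping intervals. In 8923 genes of 20 kb or more, cut into deciles after leaving out 1 kb at either end, the first decile had 18.2 doxorubicin and 29.8 DMSO peaks per Mb, a ratio of 0.613 (0.577 to 0.650). The eighth decile had the highest ratio, 0.682 (0.642 to 0.723), and the last decile 0.669, with 23.4 doxorubicin and 35.0 DMSO peaks per Mb, the densest in both libraries. By gene length, peaks were counted over whole extents, the inner side of gene ends included. Genes under 10 kb carried 63.0 doxorubicin and 100 DMSO peaks per Mb. Genes of 1 Mb or more carried 8.31 doxorubicin and 12.4 DMSO peaks per Mb. The ratio was 0.629 in genes under 10 kb and lowest, at 0.595 (0.571 to 0.620), from 10 to 30 kb. It was 0.669 (0.644 to 0.695) from 300 to 1000 kb and 0.669 in genes of 1 Mb or more. Shorter genes shared more: 71.2% of doxorubicin and 44.4% of DMSO peaks in genes under 10 kb, against 49.5% of doxorubicin and 33.1% of DMSO peaks in genes of 1 Mb or more. The inner side of gene ends makes up a larger part of short genes. Its part in this difference, and that of summit height, was not tested.

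The shared percent of DMSO peaks differed among genes with many peaks. In 727 genes with 10 or more DMSO peaks, doxorubicin peaks were more numerous in 24, equal in 12 and fewer in 691, and the shared percent of DMSO peaks had a median of 33.3% (quartiles 25.0 and 43.8). Choosing by the DMSO count tilts these numbers toward DMSO: in 729 genes with 16 or more peaks of both lists together, doxorubicin peaks were more numerous in 55, equal in 28 and fewer in 646, and in 323 genes with 10 or more doxorubicin peaks more numerous in 45, equal in 12 and fewer in 266. PLEKHG4B had 16 doxorubicin and 14 DMSO peaks, and 13 of the 14 were shared. The protocadherin alpha cluster on chromosome 5, whose overlapping genes cannot be told apart, had 19 doxorubicin and 17 DMSO peaks over the extent of PCDHA1, and 15 of the 17 were shared. RASGRF1, a Ras exchange factor gene, had 10 peaks in either library and shared 9. At the other extreme MRTFA, which encodes a coactivator of serum response factor in smooth muscle, had 0 doxorubicin and 10 DMSO peaks. SLCO3A1, an organic anion transporter gene, had 5 doxorubicin and 16 DMSO peaks, and TJP1, a tight junction gene, had 3 doxorubicin and 13 DMSO peaks. UBE3C, a ubiquitin ligase gene, had 2 doxorubicin and 11 DMSO peaks, and MAP4, a microtubule-associated protein gene, had 2 doxorubicin and 10 DMSO peaks. None of the DMSO peaks of these 5 genes was shared. With so few peaks a gene, 0 of 10 still allows a shared percent of up to 30.8% by counting error. The genes named are extremes of the 727, a choice that this interval does not allow for. Whether the spread among genes exceeds counting error was not tested.

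Genes with the most doxorubicin-only peaks were long genes with many peaks in both libraries. PTPRN2, a receptor-type phosphatase gene, had 82 doxorubicin and 128 DMSO peaks, of which 22 of the doxorubicin peaks had no DMSO partner. CAMTA1, a calmodulin-binding transcription activator gene, had 42 doxorubicin and 56 DMSO peaks, also with 22 doxorubicin-only. DLGAP2 had 68 doxorubicin and 113 DMSO peaks and SHANK2 had 44 doxorubicin and 61 DMSO peaks; both encode postsynaptic scaffolds. CDH4, a cadherin gene, had 38 doxorubicin and 67 DMSO peaks. NTM, a neuronal adhesion gene, was the one among the 8 with more doxorubicin than DMSO peaks, 27 doxorubicin and 21 DMSO, with 16 doxorubicin-only peaks.

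Genes that act on doxorubicin, or that doxorubicin acts on, had gene-end peaks about as often as all genes. Over all protein-coding genes 21.9% had a gene-end peak with doxorubicin and 38.7% with DMSO; 4.71% had one with doxorubicin alone and 21.6% with DMSO alone. Anywhere in the extent, 54.6% of all genes had a doxorubicin peak and 67.4% a DMSO peak; in the list these were 65.5% with doxorubicin and 86.2% with DMSO, and its genes are longer, at a median of 50.7 kb against 24.2 kb over all. Of 29 genes for doxorubicin targets, transport and metabolism, 7 had one with doxorubicin (24.1%) and 9 with DMSO (31.0%). TOP2B, a topoisomerase II gene and thus a direct target, had one in both, with a fold of 3.60 with doxorubicin and 4.13 with DMSO. TOP1, which encodes topoisomerase I, had a fold of 5.76 with doxorubicin and 3.41 with DMSO, and 5 doxorubicin and 2 DMSO peaks over its extent. TOP2A, the other topoisomerase II gene, had none at its ends and 0 doxorubicin and 1 DMSO peak inside. TDP1, which removes topoisomerase I from DNA ends, had a gene-end peak with doxorubicin alone, with a fold of 5.04. AKR1B1, an aldo-keto reductase gene, had 6.12 with doxorubicin and 7.79 with DMSO, and GSTP1, a glutathione transferase gene, 4.49 with doxorubicin and 3.31 with DMSO. ABCC1, a drug efflux pump gene, had 3 doxorubicin and 9 DMSO peaks over its extent, and POR, the cytochrome P450 reductase gene, 0 doxorubicin and 5 DMSO peaks. XDH, xanthine dehydrogenase, had 3 doxorubicin and 0 DMSO peaks, and NQO1, a quinone reductase, 2 doxorubicin and 0 DMSO peaks.

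Few of the 28 genes listed for the pathway that writes and reads γH2AX had a gene-end peak. Such a peak was present in 2 of them with doxorubicin (7.14%) and in 5 with DMSO (17.9%). Over all protein-coding genes the shares were 21.9% with doxorubicin and 38.7% with DMSO. The list counts are small, and the difference from all genes was not tested. H2AX itself, the gene of the histone variant, had one in both, with a fold of 4.30 with doxorubicin and 4.07 with DMSO, and so did UBE2N, a ubiquitin-conjugating enzyme of the damage response, with 4.57 with doxorubicin and 6.19 with DMSO. CLSPN, a checkpoint mediator, INO80 and SMARCA4, both chromatin remodellers, had one with DMSO alone. With windows of 2.5 kb the list count was 6 with doxorubicin and 6 with DMSO (21.4% each), against 34.6% of all genes with doxorubicin and 54.5% with DMSO. Over its extent SMARCA4 had 3 doxorubicin and 12 DMSO peaks, BRCA1, a homologous recombination gene, 6 doxorubicin and 9 DMSO peaks, and PRKDC, the kinase of end joining, 3 doxorubicin and 8 DMSO peaks. ATM, which phosphorylates H2A.X at breaks, had 1 doxorubicin and 3 DMSO peaks, and MDC1, the reader of γH2AX, had none in either.

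Among 30 target genes of p53, the transcription factor that responds to DNA damage, 7 had a gene-end peak with doxorubicin (23.3%) and 14 with DMSO (46.7%). All 7 were among the 14: SESN2, PLK3, GADD45A, PLK2, TP53INP1, AEN and BBC3. SESN2, a stress sensor of growth signalling, had a fold of 6.41 with doxorubicin and 4.59 with DMSO. BBC3, which promotes apoptosis, had 6.87 with doxorubicin and 4.26 with DMSO. GADD45A, a growth arrest gene, stood the other way with 3.77 in the doxorubicin library and 6.26 in the DMSO library, as did AEN, an apoptosis nuclease, with 3.54 with doxorubicin and 5.76 with DMSO. With DMSO alone were SFN, PHLDA3, TP53I3, XPC, POLH, TRIAP1 and BAX. Over all genes, 21.9% had a gene-end peak with doxorubicin and 38.7% with DMSO. Of all genes with a DMSO gene-end peak, 44.3% also had one with doxorubicin, against 7 of 14 here. CDKN1A, the cell cycle inhibitor, had 0 doxorubicin and 2 DMSO peaks over its extent, and MDM2, the ligase that marks p53 for degradation, 0 doxorubicin and 1 DMSO peak.

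Genes at common fragile sites, long genes that tend to break under replication stress, had peaks in both libraries in 30 of 30 cases, as did 100% of genes of 1 Mb or more. They held 261 doxorubicin and 396 DMSO peaks, a ratio of 0.659, against 0.634 over the extents of all protein-coding genes. Of these peaks, 40.2% with doxorubicin and 26.8% with DMSO were shared, against 55.0% of doxorubicin and 34.7% of DMSO peaks over all genes. In genes of 1 Mb or more, closer in length, 49.5% of doxorubicin and 33.1% of DMSO peaks were shared, and the difference was not tested. WWOX had 13 doxorubicin and 18 DMSO peaks, with 2 of the 18 shared, and FHIT 4 doxorubicin and 5 DMSO peaks, with none shared. DMD, the dystrophin gene, had 8 doxorubicin and 22 DMSO peaks, with 1 of the 22 shared. CSMD1, with 24 doxorubicin and 23 DMSO peaks, and DLG2, with 18 doxorubicin and 15 DMSO peaks, had more doxorubicin peaks. RAD51B, a recombination gene, had 7 doxorubicin and 24 DMSO peaks, and PDE4D, a phosphodiesterase gene, 5 doxorubicin and 16 DMSO peaks. Of the 257 zinc finger genes of chromosome 19, many of them transcriptional repressors, 40 had a gene-end peak with doxorubicin (15.6%) and 87 with DMSO (33.9%). Over all protein-coding genes these shares were 21.9% with doxorubicin and 38.7% with DMSO. With lists of equal length the DMSO share of the zinc finger genes was 25.7%, against 26.1% of all genes, and the doxorubicin shares were unchanged.

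Promoters under peaks were GC-rich in both libraries, and those under a doxorubicin peak alone less so. Of 34961 RefSeq promoter windows of 300 bases, from 27195 genes, 562 met a doxorubicin peak alone, 2823 a DMSO peak alone and 1645 both. The median GC content was 61.3% under doxorubicin peaks alone, 65.3% under DMSO peaks alone and 65.0% under both, against 58.7% over all windows. The median number of CpG was 14.5 under doxorubicin peaks alone, 23 under DMSO peaks alone, 21 under both and 14 over all. A GC box was found in 48.8% of doxorubicin-only promoters (44.5 to 52.97), 63.1% of DMSO-only promoters (61.2 to 64.8), 61.7% of shared ones and 45.0% of all. A TATA box was found in 7.65% of doxorubicin-only, 5.56% of DMSO-only and 6.32% of shared promoters, against 11.5% of all, and the core of the cAMP response element in 23.5% of doxorubicin-only, 26.3% of DMSO-only and 28.1% of shared promoters, against 24.5% of all. Doxorubicin-only promoters thus resembled all promoters in CpG and GC box, and DMSO-only promoters resembled the shared ones. The 4 printed one-sided promoters span this range: FAM13C and STK31 hold 28 CpG each, and NGEF and ACER1 few.

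Across GC content, 0.230% of promoters under 40% GC had a doxorubicin peak and 0.511% a DMSO peak. At 60 to 70% GC the shares were highest, 11.2% with doxorubicin and 21.8% with DMSO. At 70% GC and above they were 7.55% with doxorubicin and 18.8% with DMSO, so the ratio of doxorubicin to DMSO promoters was 0.401, against 0.584 at 50 to 60% GC. The ratio of these ratios was 0.686 (0.593 to 0.795), and with a −log10 q limit of 5 in both lists it was 0.906 (0.637 to 1.29). GC content affects amplification and sequencing, and its part in the difference between the libraries was not tested.

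**Figure D5:**
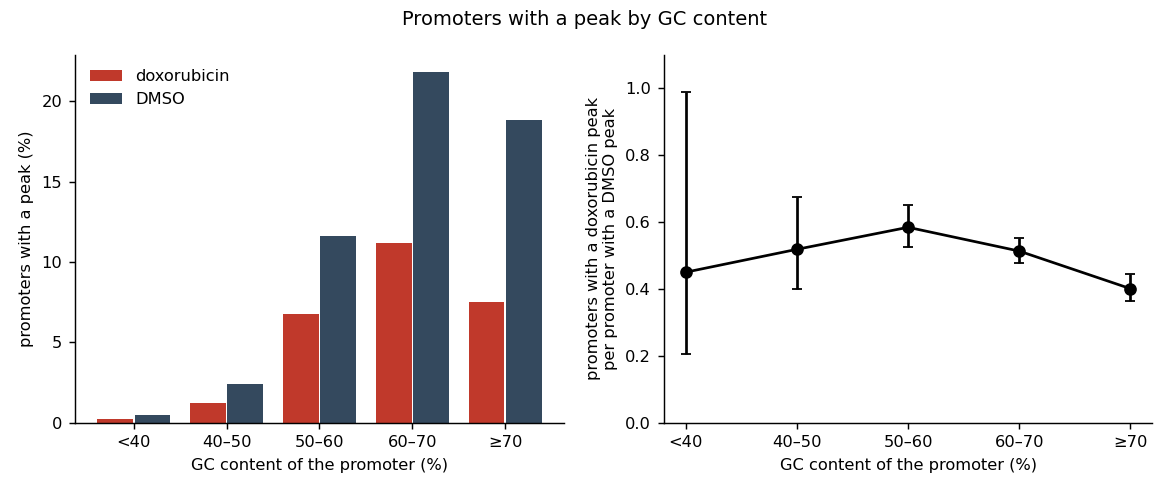
Percent of RefSeq promoter windows that meet a peak (left; doxorubicin in red, DMSO in dark blue) and promoters with a doxorubicin peak per promoter with a DMSO peak, with 95% intervals from counts (right), by GC content of the window. Both libraries are highest at 60 to 70% GC, 11.2% with doxorubicin and 21.8% with DMSO, and the ratio is 0.401 at 70% GC or more.

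The other 2 libraries of the study gave a view of one-sided sites that the comparison did not use. Of doxorubicin-only peaks, 23.5% overlapped a peak of the OTS186935 library and 10.7% one of the combination library. Of DMSO-only peaks, 31.9% overlapped a peak with OTS186935 and 13.6% one with the combination. Of shared sites, 67.1% of doxorubicin and 67.7% of DMSO peaks overlapped a peak with OTS186935, and 41.5% of doxorubicin and 42.2% of DMSO peaks one with the combination. The lowest of these shares was thus that of doxorubicin-only peaks in the library that also had doxorubicin. The combination list is the shortest of the 4 and doxorubicin-only peaks are the lowest, with a median of 5 fragments against 7 in DMSO-only peaks.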

How the data were processed

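γH2AX ChIP-seq peak lists of the doxorubicin and DMSO libraries were used, 1 library each. Per the labels' protocols, cells were cross-linked, sheared by sonication, pulled down with an anti-γH2AX antibody and prepared for sequencing with ThruPLEX reagents. Build hg38, MACS2 2.2.7.1, Bowtie2 2.4.2, bedtools 2.30.0 and Picard 2.25.3 are named in the submitters' processing notes. What each tool did, the depth and any input control are not stated there. Per row the deposited lists gave a position, a score, the fold over background (a ratio), −log10 values of p and q, and a summit offset, all the authors' values. The lists held 48594 rows with doxorubicin and 76870 with DMSO; 72 and 90 rows lay on other sequences and were left out. Rows that overlapped or touched were merged, keeping the highest values.

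Summit fragments k and background λ were solved from fold = (k + 1)/(λ + 1) and a Poisson p; the largest error in the −log10 p was 0.00024. Genes came from RefSeq GRCh38.p14, which gives no exons. Direction came from its promoter table. Peaks were placed by midpoint in bins and gene extents and by summit around gene ends. Members, the gene lists and the naming rule were chosen with earlier results of these data known. That rule took extremes of bins, genes, peaks and promoters, plus list members; not all are named. Single ratios and percents carry exact binomial 95% intervals. Ratios of ratios carry one from counts on the log scale, and differences of percents one combined from exact intervals. No test was run. Alternatives were a −log10 q limit of 5, a reciprocal overlap of 50%, joining within 1 kb, equal list lengths, a common p limit, all contigs, depth scaling, windows of 2.5 kb, bins of 5 Mb and all genes. On simulated data overlaps matched bedtools 2.31.1 with a difference of 0. Python 3.11.15, pandas 2.3.3 and scipy 1.17.1 were used.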

Additional observations from a re-analysis of the deposited data

How the results depend on the processing

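Of 84 values over 14 results, 38 stayed within the counting error of the reported value, 42 moved beyond it and 4 changed sign, chromosomes apart. Those 4 were the differences of -0.116, -0.118, -0.222 and -0.407 points given below. Where an interval was computed for them, it included no difference. Some of the 84 were fixed by their setting: a reciprocal overlap cannot change the peak count, and equal list lengths set it. No paired analysis was possible because each condition has 1 library. With a −log10 q of 5 or more in both lists, the doxorubicin count was 25.5% of the DMSO count (65.2% as reported), 55.2% of doxorubicin and 14.1% of DMSO peaks were shared (54.1% of doxorubicin and 35.1% of DMSO), the bins' Spearman correlation was 0.572 (0.935), and the lowest over the highest chromosome ratio was 0.484 (0.785). In that setting the dense over poor peak ratio was 0.680 (0.868), the gene end over intergenic ratio 0.930 (0.818) and the GC ratio of promoters 0.906 (0.686). The dense minus poor difference in points was -0.222 for doxorubicin (5.76) and -5.92 for DMSO peaks (-1.29), the gene end minus intergenic difference 1.77 for doxorubicin (19.4) and -0.116 for DMSO peaks (6.05), the gene body minus intergenic difference -2.25 for DMSO peaks (-0.964), and the width difference 101 bp (91). With a reciprocal overlap of 50%, 43.3% of doxorubicin and 28.3% of DMSO peaks were shared, the dense minus poor difference was -0.407 for doxorubicin and -4.33 for DMSO, the gene end difference 10.5 for doxorubicin and 1.41 for DMSO, and the width difference 101 bp. With lists of equal length, fixed at 100% of the count, 42.9% of doxorubicin and 42.6% of DMSO peaks were shared, the chromosome value was 0.688, the bins' correlation 0.917, the dense minus poor difference for doxorubicin 3.47, the gene end differences 16.5 for doxorubicin and 8.40 for DMSO, and the gene body difference -2.24. A common p limit gave a count of 69.0%, with 52.9% of doxorubicin and 36.3% of DMSO peaks shared, and depth scaling 70.2%, with 52.4% of doxorubicin and 36.6% of DMSO peaks. Joining within 1 kb gave 35.8% of DMSO peaks shared and a width difference of 102 bp. Windows of 2.5 kb gave a gene end ratio of 0.872 and differences of 14.8 for doxorubicin and 4.55 for DMSO. Bins of 5 Mb gave a correlation of 0.981 and a dense minus poor difference of 3.40 for doxorubicin. Within classes of summit fragments the DMSO differences were -13.1 for density, -0.118 for gene ends and -4.23 for gene bodies. The cause was not tested in any of these. The settings for the bins, the dense and gene end values of doxorubicin peaks, the peak ratios, promoters, gene lists and fragment classes were added after the data were seen. Of 46 chromosome ratios relative to the genome, 13 stayed, 18 moved and 15 crossed 1. With equal lengths these were 0.972 for chromosome 2, 1.09 for 7, 1.08 for 9, 0.963 for 10, 1.13 for 13, 0.984 for 14, 0.949 for 18 and 0.971 for 20. With the −log10 q limit they were 0.986 for chromosome 6, 1.15 for 7, 0.913 for 10, 1.02 for 11, 1.21 for 13, 0.866 for 20 and 1.05 for 21. For the lists, windows of 2.5 kb gave 6 H2AX signalling genes with doxorubicin (2) and 71 zinc finger genes (40), and equal lengths 7 fragile site genes with DMSO (11). Summits of few fragments limit what either list can show.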
